A study of Mus musculus with 2 samples.

Results

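NETosis 1 is the authors' name for 1 of 9 clusters of neutrophils from mouse liver metastases. Its members are the cells that carry this name in the deposited neutrophil table. They numbered 979 of 10922 neutrophils and of 44371 cells in all. Of these, 216 came from the shZdhhc17 library and 763 from the shSCR library. The name is kept here only as a label, because expression in single cells does not measure the release of extracellular traps.

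The 2 libraries were made from metastases seeded by 4T1, a murine line of triple-negative mammary cancer, whose cells carried a lentiviral hairpin. In the shZdhhc17 group the hairpin silenced Zdhhc17, a gene for a palmitoyltransferase, and in the shSCR group it was a scrambled sequence with no target. All hosts were female BALB/c mice of 6 to 8 weeks that received 250000 cells into the spleen, had the spleen removed, and were taken on day 14. The labels describe the hairpin in the injected cells only, and equal numbers of cells from 3 dissociations were pooled per group before capture in BD Rhapsody microwells. Each group is therefore 1 library. The differences below are set against counting error only, and the spread between mice is not known.

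Neutrophils make their granule proteins in waves while they mature in the bone marrow. Azurophil granules with myeloperoxidase and serine proteases come first, in promyelocytes. Specific granules with lactoferrin and cathelicidin follow at the myelocyte and metamyelocyte stages, and gelatinase granules come last. Transcripts of a granule protein are thus known as a sign of the stage of a cell. Extracellular traps are webs of chromatin coated with granule proteins, and the NADPH oxidase is one of several routes to their release.

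Genes of specific granules made up 7 of the 20 genes that marked NETosis 1, among them the 5 of highest fold change. All values for marker genes are from the authors' deposited table, which sets the cluster against all other neutrophils of both libraries and lists 20 genes per cluster. They describe the cluster and are no test, since it was formed from expression in the same cells. The 20 genes are 0.0928% of the 21544 in the neutrophil gene table. Of the NETosis 1 cells behind them 77.9% were from shSCR, against 60.4% of all neutrophils, so the values lean to that library.

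Ltf, which encodes the iron-binding protein lactoferrin, led the NETosis 1 markers in the authors' deposited table with a log2 fold change of 3.00. It was detected in 98.9% of NETosis 1 cells and 22.9% of other neutrophils. Camp, the cathelicidin gene, had 2.58 and was detected in 94.0% of NETosis 1 cells and 21.1% of the others. Ngp, for the neutrophilic granule protein, a relative of the cathelicidins, had 2.57 and was detected in 100% and 34.8%. Lcn2, for lipocalin 2, which binds bacterial siderophores, had 1.75 in the authors' deposited table, with 100% and 72.7%, so that it set the cluster apart more by level than by detection. Pglyrp1, for a peptidoglycan recognition protein, had 1.28, with 99.6% and 63.9%.

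Lyz2, for lysozyme, had a log2 fold change of 2.74 in the authors' deposited table and was detected in 98.0% of NETosis 1 cells and 30.9% of other neutrophils. Lyz2 has a close copy in the mouse genome, and how reads were split between them is uncertain. Cybb, for the membrane subunit of the NADPH oxidase that carries out the electron transfer, had 2.15, with 99.5% and 38.4%. Both proteins are stored in part in specific granules. Of the 16 genes listed here for these granules, 7 were NETosis 1 markers, namely Ltf, Lyz2, Camp, Ngp, Cybb, Lcn2 and Pglyrp1. Another 3 (Chil3, Cd177 and Cyba) marked NETosis 2, Mmp8 marked Migration 1, and 5 (Hp, Itgam, Ltb4r1, Olfm4 and Orm1) were in no list of markers.

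**Figure D1:**
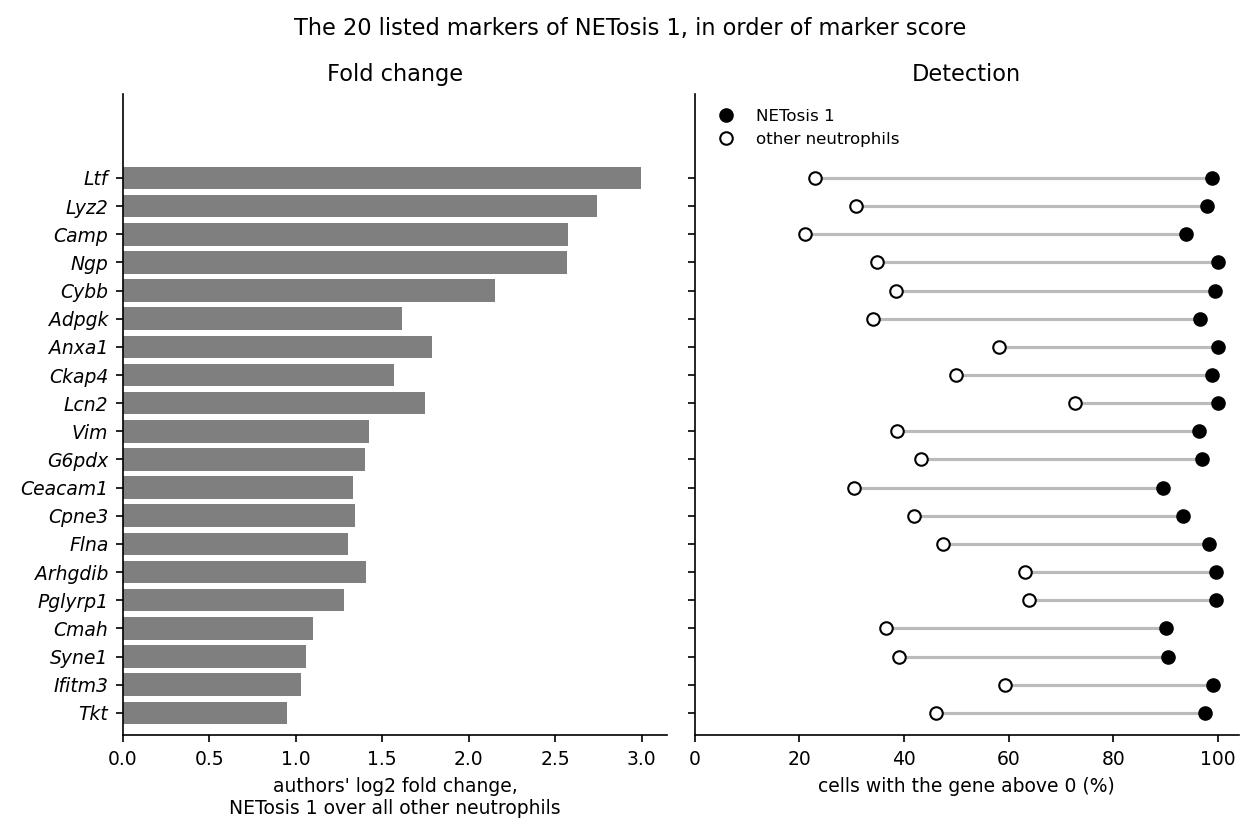
The 20 genes that the authors list for NETosis 1, with their log2 fold change over all other neutrophils (left) and the percent of cells with the gene above 0 in NETosis 1 and in the others (right). Ltf, Lyz2, Camp and Ngp lie above 2.5, and Lcn2 has the highest detection outside the cluster, 72.7%.

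Camp, Ngp and Ltf lie in this order on chromosome 9 of GRCm38 and are all protein-coding. In GENCODE M21 Camp spans 109847379 to 109849617 on the minus strand, Ngp 110419747 to 110423012 and Ltf 111019271 to 111042767 on the plus strand. The gaps are 570 kb between Camp and Ngp and 596 kb between Ngp and Ltf. The 250 bases before the start of each in RefSeq (GRCm38.p6) are shown because these 3 specific granule markers lie near each other. Capitals mark matches to TTNNGNAA, a loose form of the site of C/EBP factors, and to GAGGAA, a core of the site of PU.1, searched on both strands. These factors are known to act in the maturation of neutrophils.
Camp (chr9:109849457-109849706, minus strand): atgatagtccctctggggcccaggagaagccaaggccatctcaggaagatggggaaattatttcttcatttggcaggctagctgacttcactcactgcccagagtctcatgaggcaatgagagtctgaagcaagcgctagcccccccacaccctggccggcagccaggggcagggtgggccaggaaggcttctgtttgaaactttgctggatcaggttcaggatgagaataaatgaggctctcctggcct
Ngp (chr9:110419558-110419807, plus strand): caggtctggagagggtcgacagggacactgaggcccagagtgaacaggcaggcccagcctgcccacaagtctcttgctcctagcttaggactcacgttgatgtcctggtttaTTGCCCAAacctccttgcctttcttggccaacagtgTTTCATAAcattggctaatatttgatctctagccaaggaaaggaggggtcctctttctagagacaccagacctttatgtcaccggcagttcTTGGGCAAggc
Ltf (chr9:111019042-111019291, plus strand): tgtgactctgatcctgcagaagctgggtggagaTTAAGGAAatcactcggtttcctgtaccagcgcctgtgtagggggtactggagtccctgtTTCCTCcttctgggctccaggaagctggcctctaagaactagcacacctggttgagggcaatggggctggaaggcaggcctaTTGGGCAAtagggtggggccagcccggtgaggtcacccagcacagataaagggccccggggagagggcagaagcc

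Ngp held 3 matches to TTNNGNAA, with first bases at -138, -102 and -11 from its start, and Ltf held 2, at -217 and -75, and 1 match to GAGGAA on the opposite strand at -157. Camp held neither. None of these matches overlapped. GENCODE starts these genes earlier than RefSeq, so 161 bases of the Camp stretch, 61 of the Ngp stretch and 21 of the Ltf stretch lie inside the GENCODE gene. Of the 20 markers, 19 matched 24 RefSeq promoters, and Cpne3 matched none. TTNNGNAA was in 37.5% of the 24 and in 36.8% of all 32851 promoters, which is near the same share. GAGGAA was in 37.5% and 23.3%. A match describes letters and is not a bound site.

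The other 13 markers had log2 fold changes from 0.95 to 1.79 in the authors' deposited table, a range that takes in Lcn2 and Pglyrp1. Anxa1, for annexin A1, a regulator of leukocyte recruitment, had 1.79 and was detected in 100% of NETosis 1 cells and 58.2% of other neutrophils. Enzymes of sugar metabolism were among them. Adpgk, an ADP-dependent glucokinase, had 1.61, and G6pdx and Tkt, enzymes of the pentose phosphate pathway that supplies NADPH, had 1.40 and 0.95 in the authors' deposited table. Genes of the cytoskeleton and its regulation were Vim (vimentin, 1.42), Arhgdib (a regulator of small GTPases, 1.41), Flna (filamin A, 1.30) and Syne1 (a nesprin, 1.06). The rest were Ckap4 (1.57), Cpne3 (1.34), the adhesion molecule gene Ceacam1 (1.33), Cmah (1.10), which modifies sialic acid, and the interferon-induced Ifitm3 (1.03).

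None of the 20 markers was listed for another cluster. The same holds for the markers of every other cluster, so it is not particular to NETosis 1. Of the 20, none carried the authors' cell cycle flag, but only 94 of all 21544 genes carried it, so this says little of the cluster. Of the 20, 8 were among the 1000 genes of highest variability used for the embedding, which are 4.64% of all genes. None of the 8 genes listed here for extracellular traps was among the 20 markers. That list holds the granule genes Mpo and Elane but not Ltf, Camp, Lyz2 or Cybb. It thus does not cover all granule proteins that may coat traps. Of the 8, Mpo (4.92) and Elane (4.47) marked Early-Stage 1 and Hmgb2 (1.49) marked NETosis 2 in the authors' deposited table. Padi4, the enzyme that citrullinates histones in trap formation, and Gsdmd, H1f0, Hmgb1 and Prkcd were in the gene table but marked no cluster. With 20 genes per cluster this does not show that they were low. Of the oxidase genes, Cybb marked NETosis 1 and Cyba (0.69), whose product pairs with that of Cybb, marked NETosis 2, while Ncf1, Ncf4 and Rac2 marked none.

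Listed markers of neighbouring stages of granule formation fell in other clusters. Of 7 azurophil granule genes, 5 marked Early-Stage 1 in the authors' deposited table, namely Mpo, Elane, the cathepsin G gene Ctsg (4.72), the proteinase 3 gene Prtn3 (3.95) and Ms4a3 (3.23). Early-Stage 2 held 7 of 10 proliferation genes, namely Hmgn2 (2.27), H2afz (2.11), Mki67 (1.97), Top2a (1.91), Pcna (1.91), Mcm5 (1.49) and Birc5 (1.41). It also held Cebpe (1.31), a transcription factor needed for specific granule genes. The gelatinase granule genes Mmp9 (1.40) and Mmp25 (1.50), for matrix metalloproteinases, marked ECM Remodeling, and Mmp8 (1.50) marked Migration 1. Of 12 genes listed for circulating mature neutrophils, 10 marked other clusters in the authors' deposited table. Among them were Ly6g (2.16) and S100a8 (1.46) in ECM Remodeling, Retnlg (2.09), Wfdc17 (1.79) and again Mmp8 in Migration 1, and the chemokine receptor gene Cxcr2 (0.87) in Migration 2. Il1b (2.05) and Csf3r (1.05) marked Inflammation, and the chemokine gene Cxcl2 (2.72) marked Hypoxia/Angiogenesis. Each cluster was given 20 of the 21544 genes as markers (0.0928%), and no gene was listed for more than 1 cluster. Absence from the NETosis 1 markers is thus the usual case and does not show that a gene was low there. No azurophil, gelatinase or proliferation gene of these lists, and none of the 12 for circulating mature neutrophils, was a NETosis 1 marker. Nor was any marker listed for macrophages, Kupffer cells, T and NK cells, B cells, dendritic cells, basophils, hepatocytes, 4T1 epithelium, endothelium, fibroblasts or erythroid cells. The lists for several of these types were only in part in the neutrophil gene table, with none of 4 Kupffer cell genes and 1 of 4 hepatocyte genes (Trf, which marked Migration 1 at 0.93 in the authors' deposited table).

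Although the table pools the libraries, its fractions fix some values in each. Multiplied by 979 cells, every fraction of the 20 markers came within 0.0426 of a whole number of cells. Ngp, Anxa1 and Lcn2 lacked no cell, so all 216 shZdhhc17 and all 763 shSCR cells had them. Ltf was missing from 11 cells. Even if all 11 were shZdhhc17 cells, 94.9% of that library's NETosis 1 cells had Ltf, and by the same reasoning at least 98.6% of the shSCR cells did. For Cybb the bounds were 97.7% in shZdhhc17 and 99.3% in shSCR, and for Lyz2 90.7% and 97.4%. Camp was missing from 59 cells, which leaves at least 72.7% in shZdhhc17 and 92.3% in shSCR. For 11 of the 20 markers at least 90% of the shZdhhc17 cells must have been positive. The lowest bound was 52.3%, for Ceacam1. Cells called NETosis 1 in either library thus nearly all had Ltf, Ngp, Lcn2 and Cybb above 0. How high these genes were in each library was not analysed here.

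The leading markers were not confined to the cluster. Ltf was above 0 in 2278 of the 9943 other neutrophils, so that 29.8% of all Ltf-positive neutrophils were in NETosis 1. The same share was 30.5% for Camp, 22.0% for Ngp and 11.9% for Lcn2. These counts follow from the authors' deposited fractions and do not weigh the level in a cell.

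NETosis 2 was marked by lower fold changes in the same table. In the authors' deposited table the NETosis 1 markers had a median log2 fold change of 1.41, rank 5 of 9 clusters, and the NETosis 2 markers one of 0.81, rank 8. In NETosis 1, 19 of 20 markers had 1 or more, and in NETosis 2 5 of 20. Each cluster has its own 20 genes. The median NETosis 1 marker was detected in 98.2% of NETosis 1 cells and 40.5% of other neutrophils. For the NETosis 2 markers the medians were 79.1% of NETosis 2 cells and 30.7% of other neutrophils, so detection outside the cluster was lower as well. NETosis 2 was led by Chil3 (2.11), for a chitinase-like protein, and Cd177 (1.64), for a surface protein of neutrophils. The part of depth in this was not tested.

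The median NETosis 1 cell had 6869.5 UMIs in the shZdhhc17 library, against 8747 in the shSCR library, where a UMI marks 1 captured RNA molecule. The middle 50% of cells ran from 4942.5 to 9053 in shZdhhc17 and from 6479 to 11948 in shSCR, so the libraries overlapped widely. The ratio of medians was 0.785. It was 0.776 in NETosis 2, with 7014 UMIs in shZdhhc17 and 9036.5 in shSCR, and from 0.593 to 0.776 over the other 8 clusters. Taken whole, NETosis 1 thus had the smallest drop of the 9, by a narrow margin over NETosis 2. Its parts were mixed differently in the libraries, as given below, and the effect of this mix on the ratio was not tested. The median UMIs per cell were thus lower in shZdhhc17 in all 9 neutrophil clusters. Other cell types were not compared, and the source of this was not tested.

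Detected genes per cell differed less than UMIs. The median was 2057.5 in shZdhhc17 and 2173 in shSCR, a ratio of 0.947, against 0.907 in NETosis 2 and 0.747 in Migration 1. At 6000 to 8000 UMIs the median NETosis 1 cell had 2071 genes in shZdhhc17 (48 cells) and 1823.5 in shSCR (164 cells). At 8000 to 12000 UMIs it had 2537.5 and 2400 (60 and 249 cells), and at 4000 to 6000 UMIs 1556 and 1416 (55 and 105 cells). The order was the other way at 2000 to 4000 UMIs, with 1043 and 1061 (25 and 39 cells). It was so too at 12000 to 20000 UMIs, with 3076.5 and 3098 (20 and 176 cells). NETosis 2 cells of 6000 to 8000 UMIs had 2032 and 1775 genes, so more genes in shZdhhc17 at these UMIs was not particular to NETosis 1.

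The mitochondrial share of UMIs, a sign of RNA quality and of cell state, was nearly equal. Its median was 3.19% in shZdhhc17 and 3.18% in shSCR NETosis 1 cells. In NETosis 2 it was 2.81% and 3.12%, in ECM Remodeling 1.45% and 2.02%, and in Migration 1 0.47% and 1.52%. NETosis 1 cells without any mitochondrial UMI were rare, 2 of 216 in shZdhhc17 and 0 of 763 in shSCR. The exact 95% interval allows a share of up to 0.482% in shSCR. Among all neutrophils such cells made up 31.3% in shZdhhc17 and 15.3% in shSCR. Few NETosis 1 cells lay near the lower limit of the data, with 5 shZdhhc17 and 7 shSCR cells under 1000 UMIs, and 14 shSCR cells but 0 shZdhhc17 cells had 20000 or more.

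**Figure D2:**
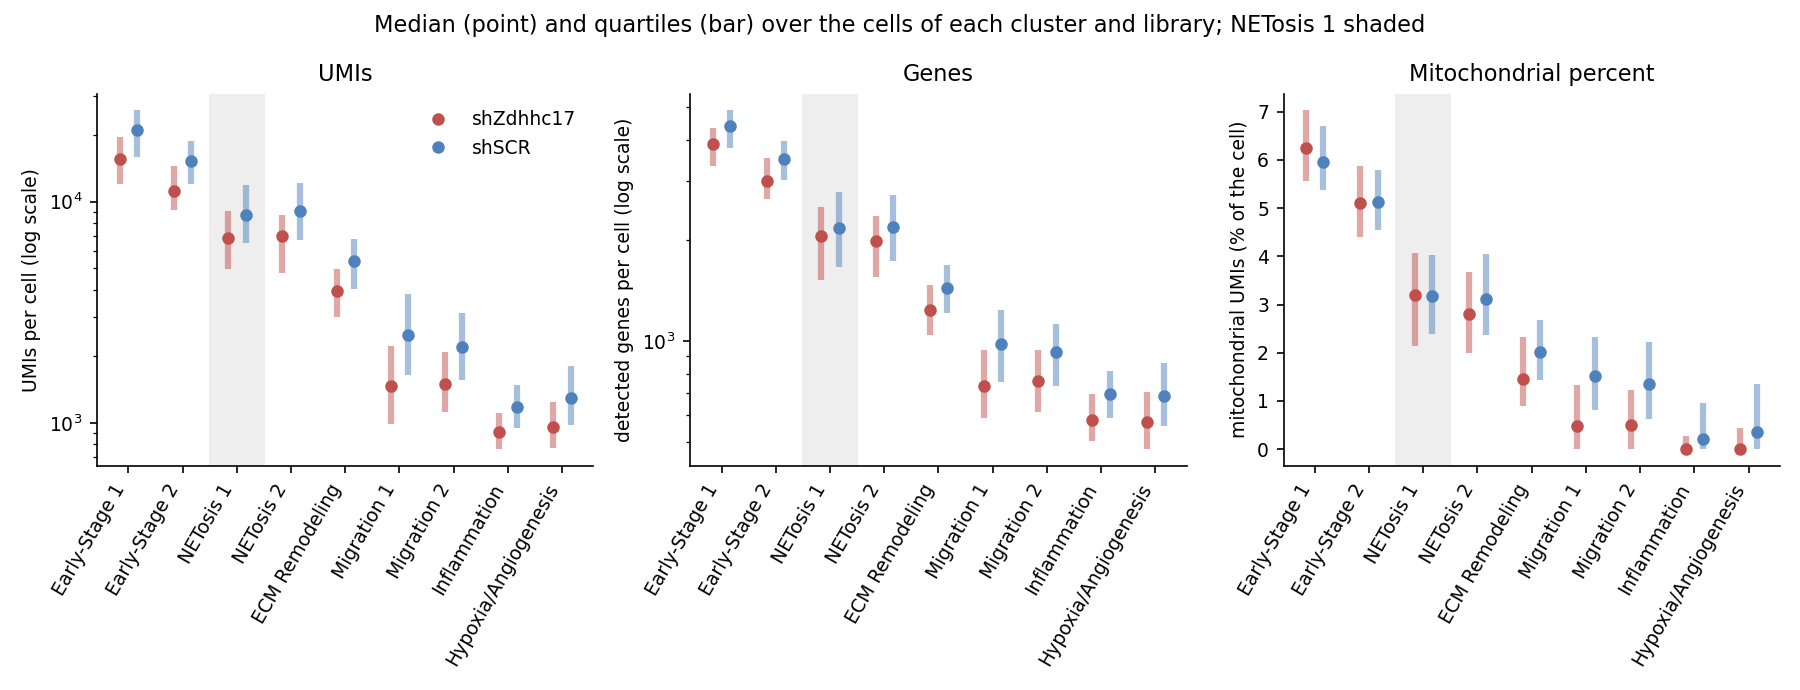
UMIs, detected genes and mitochondrial percent per cell in the 9 neutrophil clusters, as medians (points) and quartiles (bars) over cells, shZdhhc17 left of shSCR. NETosis 1 (shaded) lies near NETosis 2 and between the Early-Stage clusters and ECM Remodeling, and its mitochondrial medians are 3.19% and 3.18%.

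NETosis 1 was a smaller share of neutrophils with Zdhhc17 silenced in the injected cells. It had 216 of 4328 neutrophils in shZdhhc17 (4.99%, exact 95% interval 4.36 to 5.68) and 763 of 6594 in shSCR (11.6%, 10.8 to 12.4). The ratio was 0.431 (counting interval 0.373 to 0.499). A share is called lower or higher here where the exact intervals are separate, and 3 of the 9 clusters (33.3%) were lower by this rule. NETosis 1 was the smallest of the 9 clusters in shZdhhc17, with an interval that overlapped that of Early-Stage 2 (6.03%, 5.34 to 6.78), and rank 4 in shSCR, next to Migration 1 (11.7%, 11.0 to 12.5). No test between the groups can be made with 1 library each. Among neutrophils at or below the median mitochondrial percent (1.33%), which keeps 22 shZdhhc17 and 36 shSCR NETosis 1 cells, the ratio was 0.653 (0.385 to 1.11) and the intervals overlapped.

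The difference was seen against every other cluster taken alone. For each NETosis 2 cell there were 0.605 NETosis 1 cells in shZdhhc17 and 1.88 in shSCR. For each Early-Stage 2 cell there were 0.828 and 1.92, and for each ECM Remodeling cell 0.621 and 1.53. The smallest contrast was with Migration 1, itself lower in shZdhhc17, at 0.690 and 0.986. Of all NETosis 1 and Migration 1 cells, 40.8% (36.6 to 45.2) were NETosis 1 in shZdhhc17 and 49.6% (47.1 to 52.2) in shSCR. By UMIs in place of cells, NETosis 1 gave 9.04% of neutrophil UMIs in shZdhhc17 and 19.2% in shSCR, and NETosis 2 14.4% and 10.3%.

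Because the libraries differ in depth, the share was also taken within 10 classes of UMIs. NETosis 1 cells were few below 1997 UMIs in both libraries, at most 7 cells in a class. From 8425 to 13965 UMIs they made up 16.8% of shZdhhc17 neutrophils (64 of 381) and 41.8% of shSCR neutrophils (297 of 711). Above that they made up 2.05% (6 of 292) and 14.0% (112 of 801). From 5230 to 8418 UMIs the shares were 23.5% and 32.9%. In the class from 1997 to 3104 UMIs the order turned, with 5.04% in shZdhhc17 (17 of 337) and 1.46% in shSCR (11 of 755).

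The turn was not seen after the depths were brought closer. When the UMIs of shSCR cells were multiplied by 0.737, the median ratio of the other 8 clusters, the upper 5 classes all had the smaller share in shZdhhc17. The ratios were 0.400, 0.408, 0.569, 0.502 and 0.583 from low to high UMIs, and the intervals were separate in the 3 middle ones. This scaling was chosen after the data were seen. Matched over all classes, the ratio was 0.554 (0.482 to 0.638) without scaling and 0.522 (0.454 to 0.600) with it, against 0.431 unmatched.

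**Figure D3:**
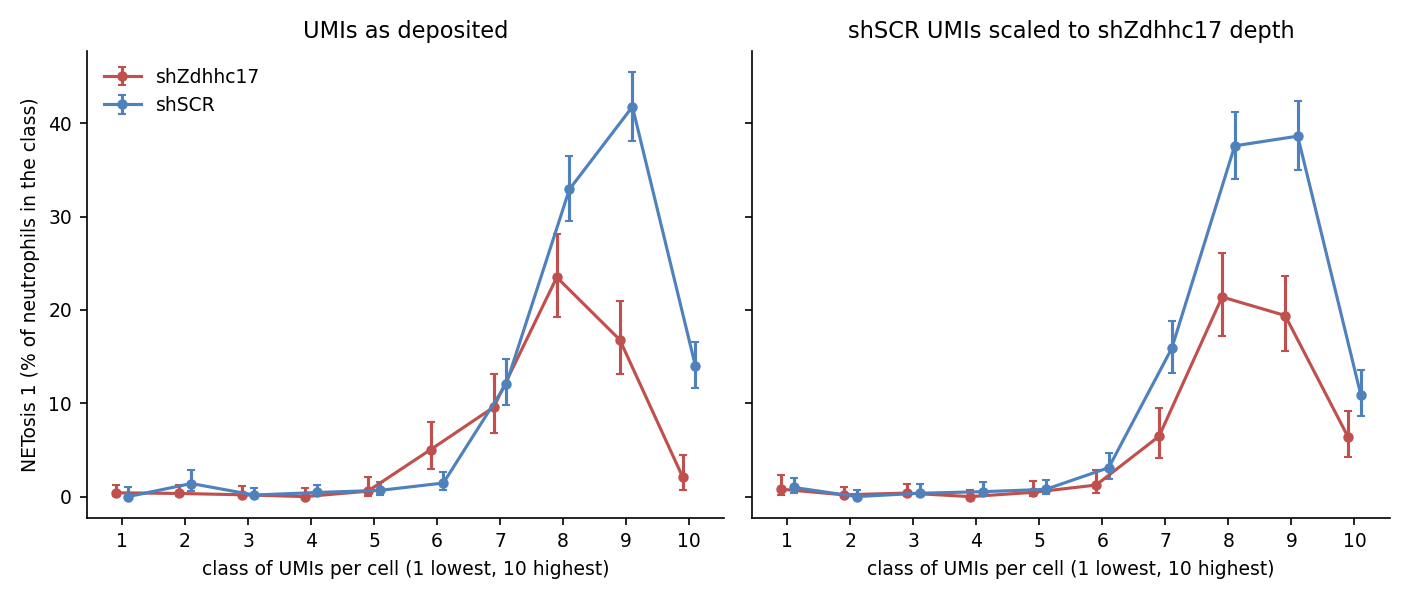
NETosis 1 cells as a percent of the neutrophils in each of 10 classes of UMIs per cell, shZdhhc17 and shSCR, with exact 95% intervals, from UMIs as deposited (left) and with shSCR UMIs multiplied by 0.737 (right). On the left the libraries cross between classes 6 and 7, and on the right shZdhhc17 lies below shSCR from class 6 up.

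NETosis 1 was not uniform. The authors also clustered all cells of the data set before they split the neutrophils, and 94.4% of NETosis 1 cells lay in 4 of these initial clusters. Initial cluster 58 held 288 of them and was shared with Early-Stage 2, which had 11.1% of it, and NETosis 2, which had 8.64%. Initial cluster 97 held 225 and was almost wholly NETosis 1, at 93.8%. Initial cluster 9 held 278 and was shared with NETosis 2, which had 39.0% of it, and ECM Remodeling, which had 9.56%. Initial cluster 70 held 133 and was shared with ECM Remodeling, which had 53.9%. Both clusterings rest on the same cells and genes, so these overlaps describe how the cells are arranged.

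Depth and mitochondrial share fell in the same order within NETosis 1. Median UMIs in shZdhhc17 and shSCR were 8347 and 12161 in initial cluster 58, 7346 and 10061 in 97, 5209.5 and 7631 in 9, and 4388 and 6146 in 70. The mitochondrial medians were 3.62% and 4.02% in 58, 3.20% and 3.32% in 97, 2.17% and 2.74% in 9, and 1.22% and 2.31% in 70. In each of the 4 the shZdhhc17 cells had the lower median of both measures. The equal mitochondrial medians of the whole cluster thus went with a different mix of its parts. The ratios of its median UMIs (0.785) and detected genes (0.947) were taken over the same mix. Median genes in shZdhhc17 and shSCR were 2309 and 2846 in 58, 2138 and 2435.5 in 97, 1502 and 1902.5 in 9, and 1367 and 1551 in 70.

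The libraries differed more in the parts of NETosis 1 in initial clusters 9 and 70 than in the part in initial cluster 58. NETosis 1 cells of initial cluster 58 made up 1.96% of neutrophils in shZdhhc17 (85 cells) and 3.08% in shSCR (203 cells), a ratio of 0.638 (0.497 to 0.819). In 97 they made up 1.22% and 2.61% (53 and 172 cells), a ratio of 0.469 (0.346 to 0.637). In 9 they made up 1.06% and 3.52% (46 and 232 cells), a ratio of 0.302 (0.221 to 0.414). In 70 they made up 0.323% and 1.80% (14 and 119 cells), a ratio of 0.179 (0.103 to 0.311). Within NETosis 1, initial cluster 58 was 39.4% (32.8 to 46.2) of the shZdhhc17 cells and 26.6% (23.5 to 29.9) of the shSCR cells. Initial cluster 70 was 6.48% (3.59 to 10.6) and 15.6% (13.1 to 18.4). All intervals cover counting error only, and the difference between the 4 ratios was not tested over mice.

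For cells of the same initial clusters that the authors placed outside NETosis 1, the exact intervals of the libraries overlapped. NETosis 2 cells of initial cluster 9 made up 1.92% of neutrophils in shZdhhc17 and 1.96% in shSCR (83 and 129 cells), a ratio of 0.980 (0.746 to 1.29). Its ECM Remodeling cells had a ratio of 1.78 (1.03 to 3.06) on 28 and 24 cells. ECM Remodeling cells of initial cluster 70 made up 1.41% and 1.71% (61 and 113 cells), a ratio of 0.822 (0.604 to 1.12). As a result, 28.9% (22.0 to 36.6) of initial cluster 9 was NETosis 1 in shZdhhc17 and 60.3% (55.2 to 65.2) in shSCR. In initial cluster 70 the values were 17.7% (10.0 to 27.9) and 48.8% (42.3 to 55.2). Whether the border that the authors drew between these clusters lies alike in both libraries was not tested.

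**Figure D4:**
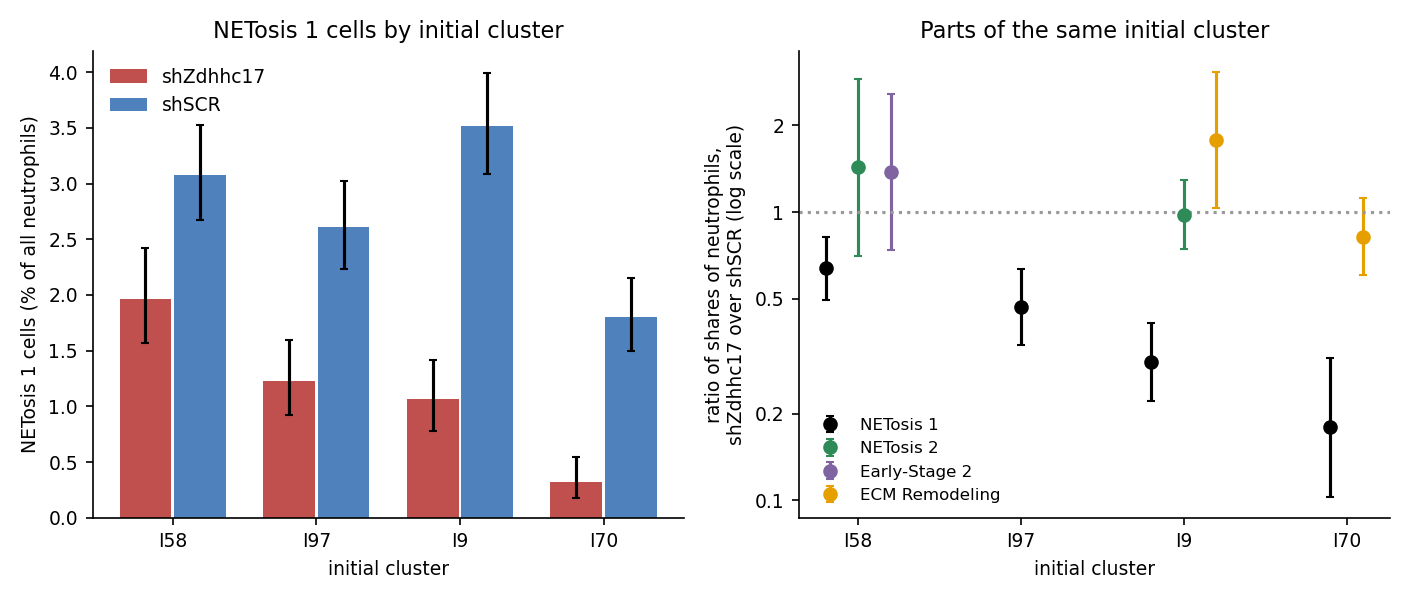
NETosis 1 cells by the initial cluster they lay in (58, 97, 9 and 70), as a percent of all neutrophils written I58 and so on, with exact 95% intervals, shZdhhc17 left of shSCR (left panel), and the ratio of shares with counting intervals for NETosis 1 and for the parts of the same initial cluster with 20 or more cells in other neutrophil clusters (right panel, log scale). The NETosis 1 ratios are 0.638, 0.469, 0.302 and 0.179, while the other parts lie from 0.822 to 1.78.

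On the neutrophil UMAP, a map that places similar cells near each other, 92.0% of the 15 nearest neighbours of a NETosis 1 cell were NETosis 1 cells. The rest were NETosis 2 (3.87%), Migration 1 (1.70%), Early-Stage 2 (1.61%) and ECM Remodeling (0.783%). No neighbour was from Early-Stage 1, Migration 2, Inflammation or Hypoxia/Angiogenesis. NETosis 2 neighbours were 6.45% for shZdhhc17 cells and 3.14% for shSCR cells. When only cells of the same library counted, they were 8.95% and 2.97%. The libraries held 0.605 NETosis 1 cells per NETosis 2 cell in shZdhhc17 and 1.88 in shSCR. How much of the contrast in neighbours goes with these numbers was not tested. The NETosis 1 cells of the libraries were mixed, with 26.0% shZdhhc17 cells among the neighbours of shZdhhc17 cells and 21.7% among those of shSCR cells. On the map of all cells, 98.7% of the neighbours in shZdhhc17 and 98.5% in shSCR were neutrophils, and most others were cells of doublet label D2 (1.14% and 1.37%).

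As a share of all cells, NETosis 1 was at 1.00% in shZdhhc17 (0.875 to 1.15) and 3.34% in shSCR (3.11 to 3.58). The ratio was 0.301 (0.259 to 0.350), below that among neutrophils because neutrophils as a whole were a smaller part of the shZdhhc17 library. NETosis 2 was at 1.66% (1.49 to 1.84) and 1.78% (1.61 to 1.96) of all cells, with overlapping intervals. A share says nothing of the number of cells in a metastasis, since a set number of cells was loaded.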

How the data were processed

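The authors deposited tables per cell and per gene, and a table of markers. Per the file headers, the BD Rhapsody pipeline was run, counts were corrected for ambient RNA, and symbols follow GRCm38 (mm10). Seurat 4.1.0 is in the submitters' processing notes. For the pipeline version and the way ambient RNA was removed, the sources used here give nothing. The deposited values are whole-number counts per cell (UMIs and detected genes), the percent of UMIs from mitochondrial genes, and UMAP coordinates, a score with no unit. Per the file headers, the marker table holds the authors' log2 fold changes (Wilcoxon method, depth-scaled log2 data, pseudocount of 1), the fraction of cells in which a gene was detected (multiplied by 100 in the text), and a marker score. Gene levels in single libraries were not analysed here.

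Cells were grouped by the library named in each row. The depth was 172527305 UMIs in shZdhhc17 and 214842365 in shSCR, and every cell had 500 UMIs or more and at most 15.0% mitochondrial UMIs. All 10922 neutrophils had the same UMIs in both cell tables. The libraries shared 609 barcodes over all cells. Of these, 31 were shared among neutrophils and 5 belonged to NETosis 1 cells (1 in shZdhhc17 and 4 in shSCR), with none in NETosis 1 in both. No further doublet caller was run, and the authors' doublets were outside the neutrophil table.

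Shares have exact Clopper-Pearson 95% intervals, and ratios (shZdhhc17 over shSCR) have log-normal 95% intervals, both for counting error only. Medians over cells have no interval. Classes of UMIs are the 10 equal parts of all neutrophils, and neighbours are Euclidean. Python 3.11.15, scipy 1.17.1 and scikit-learn 1.9.0 were used, and the intervals and the motif search were tested on simulated data. Coordinates are from GENCODE M21. The rule for named genes took the NETosis 1 markers on a gene list, the 10 of highest fold change, and every listed gene that marked another cluster, and the other NETosis 1 markers are named so that all 20 are accounted for. The cluster, the gene lists and the tests were chosen with earlier results of these data known. The alternatives changed the denominator, removed cells by UMIs or mitochondrial share, or matched the libraries by UMIs, with classes weighted to their size in shSCR. A few listed genes are not reported here.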

Additional observations from a re-analysis of the deposited data

Results flagged for a closer look

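The shares of NETosis 1 and NETosis 2 among neutrophils differed between the libraries in opposite directions, which is what drew attention to the pair. The ratio, shZdhhc17 over shSCR, was 0.431 for NETosis 1 (216 and 763 cells) and 1.34 for NETosis 2 (357 and 406 cells, 1.17 to 1.54). The difference between the 2 ratios was not tested over mice, since each group is 1 library. The depth of both clusters was close in each library, with ratios of median UMIs of 0.785 and 0.776. Shares of neutrophils are bound together, since a smaller share of a cluster leaves a larger share to others. Of all cells, NETosis 2 was 1.66% in shZdhhc17 and 1.78% in shSCR, with overlapping intervals. NETosis 1 was 1.00% and 3.34% of all cells, with separate intervals.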

How the results depend on the processing

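No paired analysis was possible because each group is 1 pooled library with no replicate number. Over 45 alternatives no direction turned, and 13 were marked as moved from the main value. The 45 take in settings for neighbours and markers, which have no direction. They also take in the same neutrophils drawn from all cells, which repeat the main ratio. The classes of UMIs taken alone are not among them, and from 1997 to 3104 UMIs the order turned. The NETosis 1 ratio among neutrophils, 0.431, lay between 0.353 and 0.653 over 14 alternatives, 13 of them lower in shZdhhc17. It was 0.554 without the neutrophils of fewest UMIs (under 1093), 0.535 from 1000 UMIs up, 0.554 after matching on UMIs, 0.522 after matching with scaled shSCR UMIs and 0.353 without initial cluster 58. At or below the median mitochondrial percent of neutrophils (1.33%) it was 0.653 (0.385 to 1.11), with overlapping intervals, on the 22 shZdhhc17 and 36 shSCR NETosis 1 cells (5.92% of the cluster) that this filter keeps. The ratio among all cells, 0.301, was 0.364 among immune cells. The NETosis 2 ratio of 1.34 was 1.75 and 1.69 under the same 2 filters, 1.88 at low mitochondrial percent, with overlapping intervals, and 1.71 after matching. NETosis 1 as a share of both NETosis clusters (37.7% in shZdhhc17 and 65.3% in shSCR, ratio 0.578) went to 0.508 at low mitochondrial percent and 0.470 without initial cluster 58. The cause of these shifts was not tested. Under 1000 UMIs lay 31.1% of shZdhhc17 and 13.3% of shSCR neutrophils, so filters on UMIs removed a larger part of shZdhhc17. The libraries differ in depth and also in the share of clusters with few UMIs, such as Inflammation (28.6% in shZdhhc17 and 18.1% in shSCR). How much each adds was not tested. Without cells of shared barcodes the main ratio was 0.433. The removal of initial clusters, of the Inflammation and Hypoxia/Angiogenesis clusters and of shared barcodes, and the scaling, were chosen after the data were seen.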

Other observations

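The authors' later and finer clustering of selected cells split NETosis 1 over 23 clusters, of which 9 held 50 or more NETosis 1 cells and 79.8% of the cluster together. In 8 of these 9 the ratio of shares of neutrophils, shZdhhc17 over shSCR, was between 0.226 and 0.614 with counting intervals below 1. The exception was 1 cluster with 25 shZdhhc17 and 30 shSCR cells and a ratio of 1.27 (0.748 to 2.16). Its median depth was 10046 UMIs in shZdhhc17, against 13967 in shSCR, and 18 of 25 and 25 of 30 lay in initial cluster 58. It was picked after its values were seen.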
